A study of Mus musculus with 5 samples.

Results

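The 10 genes described here encode the killing machinery of cytotoxic lymphocytes and were taken by name: Gzma, Gzmb, Gzmk, Prf1, Nkg7, Klrd1, Klrk1, Ncr1, Fasl and Eomes. All 10 were found among the 46983 genes of the count tables. They were measured by RNA-seq in 5 libraries labelled as tumour-associated macrophages, sorted as CD45+ CD11B+ Ly6G- F4/80+ cells from orthotopic tumours of EO771, a mouse mammary carcinoma line, in C57/BL6 mice. In the Treg-ablated group (2 libraries) diphtheria toxin had been given in 2 doses, 50 µg per kg each, to remove regulatory T (Treg) cells, and cells were sorted after 4 days. The control group (3 libraries) was left untreated. The labels name no allele that makes Treg cells sensitive to the toxin, and no group received toxin without losing Treg cells, so an effect of the toxin and an effect of Treg loss cannot be told apart. Nothing in the labels says that libraries of a group came from separate mice, so p-values reflect only how far these libraries differ, and that may be technical. Totals ran from 13122668 to 20156835 counts per library.

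Cytotoxic T cells and natural killer (NK) cells kill by releasing granules in which perforin opens the target membrane and granzymes, a family of serine proteases, enter and start cell death. A parallel route runs through Fas ligand on the killer cell and its receptor Fas on the target. Receptors of the killer cell lectin-like family (CD94, encoded by Klrd1, and NKG2D, encoded by Klrk1) and the natural cytotoxicity receptor NKp46 (Ncr1) tell NK cells and some T cells when to strike. The T-box factors Eomes and T-bet (Tbx21) and the RUNX factors drive this gene programme. Macrophages are not its usual home, whereas activated Treg cells and mouse mast cells can also make granzyme B.

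The sorted libraries held transcripts of several cell types. Of the genes behind the gate, Ptprc (CD45) had 22.1 to 33.0 CPM (counts scaled by library size), Itgam (CD11b) 12.2 to 19.0 CPM and Adgre1 (F4/80) 5.73 to 9.87 CPM, while Ly6g had at most 3 counts in a library. T cell markers were present in every library, and fibroblast markers summed to between 9927 and 12090 CPM. Epithelial markers summed to between 259 and 317 CPM, mostly Krt18 and Krt8, while Epcam had at most 10 counts in a library. The effector transcripts are therefore described as transcripts of these libraries and are not assigned to macrophages. In bulk RNA, fewer cells of a type and less RNA per cell cannot be told apart. Foxp3, which defines Treg cells, had 1 and 5 counts after ablation and 3, 9 and 3 in controls, too few to check the ablation.

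Promoter windows of RefSeq (GRCm38.p6, 250 bases before to 50 after the start of the transcript) were found for 9 of the 10 genes. Klrd1 had no entry, and Ncr1 had 2 overlapping windows, both with the same cores, of which the first is counted and shown. The windows were searched on both strands for GTGTGA, a core bound by T-box factors, and TGTGGT, a core bound by RUNX factors. Neither overlaps the other in the 3 windows shown, which are those of the genes that hold both cores and which include the gene with the largest change, Gzmb, and the gene whose change did not pass, Ncr1. Capitals mark the cores, also where they lie on the opposite strand (TCACAC and ACCACA). Each sequence runs 5′ to 3′ on the strand of its gene.
Gzmb (chr14:56262285-56262584, minus strand): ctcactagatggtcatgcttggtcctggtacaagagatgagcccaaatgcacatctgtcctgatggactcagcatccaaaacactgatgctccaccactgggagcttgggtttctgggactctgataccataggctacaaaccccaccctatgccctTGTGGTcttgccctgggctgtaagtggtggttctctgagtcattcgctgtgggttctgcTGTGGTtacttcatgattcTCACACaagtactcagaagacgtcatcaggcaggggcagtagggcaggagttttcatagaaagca
Nkg7 (chr7:43436888-43437187, plus strand): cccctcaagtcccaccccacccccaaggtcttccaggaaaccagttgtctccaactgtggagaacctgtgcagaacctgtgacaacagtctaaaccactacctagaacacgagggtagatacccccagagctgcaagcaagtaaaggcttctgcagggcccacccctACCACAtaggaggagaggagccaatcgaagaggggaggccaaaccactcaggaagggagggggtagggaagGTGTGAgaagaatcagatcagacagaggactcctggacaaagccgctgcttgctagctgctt
Ncr1 (chr7:4337465-4337764, plus strand): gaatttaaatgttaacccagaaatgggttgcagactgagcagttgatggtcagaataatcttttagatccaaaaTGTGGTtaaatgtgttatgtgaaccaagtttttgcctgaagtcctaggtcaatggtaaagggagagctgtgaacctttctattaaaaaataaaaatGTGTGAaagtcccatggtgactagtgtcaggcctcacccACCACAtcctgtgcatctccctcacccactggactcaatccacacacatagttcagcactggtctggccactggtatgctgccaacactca
In the Gzmb window the T-box core began at −15 and the RUNX cores at −93 and −34, counted from the RefSeq start. That start is not the start of the counted Gzmb gene, which lies on the minus strand and ends at 56262260, outside the window. The Gzmk window (113180916 to 113181215) lies inside the counted gene, which ends at 113225908 on the minus strand, so there too the starts differ. Counted by gene, 4 of the 9 held the T-box core (Gzmb, Gzmk, Nkg7 and Ncr1) and 6 the RUNX core (Gzma, Gzmb, Prf1, Nkg7, Klrk1 and Ncr1). Of all 32851 mouse windows 14.5% held the T-box core, 16.8% the RUNX core and 2.92% both. The windows of Fasl and Eomes held neither. A match is a description of letters, not a bound site, and Ncr1 held both cores although its change did not pass the test.

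The comparison asked how these transcripts differed after Treg ablation. Of the 10 genes 9 were higher in Treg-ablated libraries and 1, Ncr1, did not pass (edgeR quasi-likelihood test with Benjamini-Hochberg adjustment over all 14580 genes tested, threshold 0.05), whereas 25.8% of all genes tested were called, 13.5% as higher and 12.3% as lower. The median log2 fold change of the 10 genes was 1.44, beside −0.01 over all genes tested. The Treg-ablated libraries lay above all controls for the same 9 genes, as they did for 26.9% of all genes tested, with 25.6% below. Gzmk, Fasl and Eomes passed the filter on low counts only through the Treg-ablated libraries, where they were high, so the count was repeated with every gene that had at least 1 count. It was again 9 of 10, with a median of 1.43. Of all 25940 genes in that repeat 2082 were higher and 2336 lower, with a median of −0.01.

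**Figure D1:**
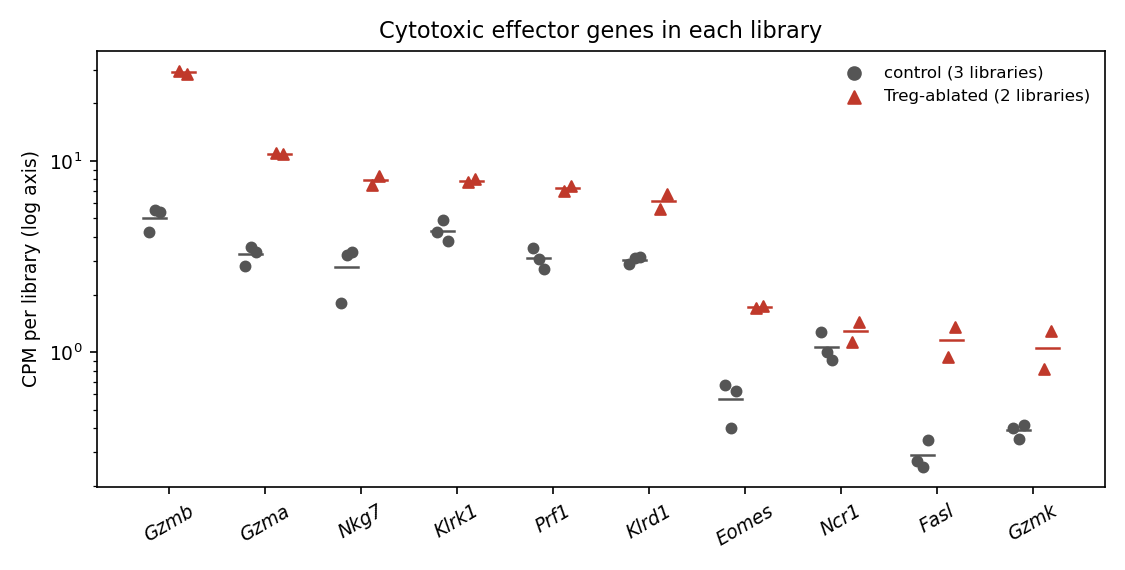
CPM of the 10 effector genes in each library on a log axis. Circles are the 3 control and triangles the 2 Treg-ablated libraries, and short lines are group means. For every gene except Ncr1 both triangles lie above all 3 circles, and Gzmb shows the widest gap.

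Of the 10 genes Gzmb had the largest fold change. It encodes granzyme B, which cleaves caspases and their substrates (ENSMUSG00000015437, chromosome 14, 56258856 to 56262260, GRCm38 as in the files). Treg-ablated replicates 1 and 2 had 471 and 376 counts, and controls 1, 2 and 3 had 63, 110 and 78. In CPM these were 29.7 and 28.4 against 4.23, 5.51 and 5.43. The lowest Treg-ablated library lay far above the highest control. The log2 fold change was 2.51 (SE 0.121, adjusted p = 2.05e-06 by edgeR), a 5.70-fold rise. Gzma encodes granzyme A, a protease with a different cleavage preference (chromosome 13, 113093825 to 113100979). It had 174 and 144 counts after ablation and 42, 71 and 48 in controls, or 10.97 and 10.86 against 2.82, 3.56 and 3.34 CPM. Its replicates were close together and the groups did not overlap. The rise was 3.34-fold (log2 fold change 1.74, SE 0.144, edgeR adjusted p = 7.22e-05). Gzmk encodes granzyme K, a relative of granzyme A that lies on the same chromosome (113171608 to 113225908). It was the rarest of these granzymes, with 13 and 17 counts after ablation and 6, 7 and 6 in controls. Its log2 fold change was 1.40 (SE 0.395, edgeR adjusted p = 0.0260), and the ratio of summed, scaled counts was 2.67 with an exact 95% interval of 1.45 to 5.02 that covers counting error only. The Gzmk call ended without Treg-ablated replicate 2 (adjusted p = 0.224) and without control replicate 2 (adjusted p = 0.0922).

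Levels can be compared between genes per kilobase of exon. In controls Gzmb had 2.98 to 3.88 CPM per kilobase and Gzma 3.21 to 4.05, so these levels overlapped. After ablation Gzmb had 20.94 and 20 CPM per kilobase and Gzma 12.5 and 12.4. The ratio of Gzmb to Gzma per base of exon was 1.68 and 1.62 after ablation and 0.929, 0.959 and 1.01 in controls, with no overlap between groups. Among the summed levels of Gzma, Gzmb and Gzmk per base, Gzmb took 61.5% and 60.1% after ablation and 46.0% to 48.3% in controls, while the share of Gzma was 36.7% and 37.2% against 48.0% to 49.5%. The share of Gzmk was 1.73% and 2.77% against 3.08% to 4.47%. These shares were not tested.

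The granzyme cluster on chromosome 14 beside Gzmb holds close paralogs whose reads the counting could split, so their values are uncertain. Gzmc, which encodes granzyme C, was the most abundant of all granzymes per kilobase in the controls, at 9.35 to 11.4 CPM per kilobase. It had 321 and 279 counts after ablation and 130, 213 and 131 in controls, and rose 2.15-fold (log2 fold change 1.11, SE 0.113, edgeR adjusted p = 0.000269). The ratio of Gzmb to Gzmc per base of exon was 0.967 and 0.888 after ablation and 0.319 to 0.392 in controls. Gzmb thus went from well below Gzmc to about its level. Gzmd, another gene of the cluster, had 37 and 28 counts against 11, 14 and 16 and rose 2.65-fold (edgeR adjusted p = 0.00665). Gzme had 24 and 25 counts against 8, 3 and 14 and rose 3.25-fold (edgeR adjusted p = 0.0278). The Gzme call was lost without Treg-ablated replicate 2 (adjusted p = 0.0854) and without control replicates 1 (0.0508) or 2 (0.0853). Gzmm, which lies on chromosome 10, had 16 and 20 counts against 6, 11 and 12 and did not pass (edgeR adjusted p = 0.0649), but passed without control replicate 3 (adjusted p = 0.0376) and without the filter on low counts (adjusted p = 0.0414). In all, 3 of the 7 other granzymes were higher, 2 did not pass and 2 were not tested, and Gzmn had 0 counts in every library.

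The genes of perforin and the granule protein NKG7 were higher as well. Prf1, which encodes the pore-forming perforin (chromosome 10, 61297836 to 61304263), had 111 and 98 counts after ablation and 52, 61 and 39 in controls, or 6.998 and 7.392 against 3.49, 3.06 and 2.72 CPM. Each Treg-ablated library was above each control. The rise was 2.32-fold (log2 fold change 1.22, SE 0.161, edgeR adjusted p = 0.000938). Nkg7 encodes a granule membrane protein of T and NK cells that takes part in granule release (chromosome 7, 43437073 to 43438249). It had 119 and 110 counts after ablation and 27, 64 and 48 in controls, or 7.502 and 8.297 against 1.81, 3.21 and 3.34 CPM. Control replicate 1 lay below the other controls, and the groups did not overlap. The rise was 2.80-fold (log2 fold change 1.48, SE 0.212, edgeR adjusted p = 0.00128). In controls Prf1 per kilobase stood at 1.32 to 1.70 CPM and Nkg7 at 1.98 to 3.66.

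Of 10 other genes of granule biogenesis and release, 4 were higher and 1 lower, while 5 did not pass (median log2 fold change 0.35). Stx11, a syntaxin needed for granule release by killer cells, rose 1.65-fold from 10.1 ± 0.408 (SD, n = 3) to 16.6 ± 0.304 CPM (n = 2; edgeR adjusted p = 0.00128). Srgn, which encodes serglycin, the proteoglycan that packs granzymes, rose 1.53-fold (edgeR adjusted p = 0.00141). Ctsw, a cathepsin of T and NK cells, rose 2.04-fold (edgeR adjusted p = 0.00360). Cst7, which encodes cystatin F, an inhibitor of granule proteases, rose 2.01-fold (edgeR adjusted p = 0.0194), a result lost under DESeq2 (adjusted p = 0.0913) and without Treg-ablated replicate 1 or control replicate 2 (adjusted p = 0.123 and 0.0590). Lyst, a regulator of lysosome-related organelles, was the member that was lower, 1.61-fold (edgeR adjusted p = 0.0373). Its Treg-ablated replicates were far apart, at 16.4 and 28.9 CPM, and the call was lost under DESeq2 (adjusted p = 0.183), without Treg-ablated replicate 1 (0.173) and without control replicates 1 (0.0929) or 2 (0.113). Of the 4 serpin genes listed as granzyme inhibitors 1 was higher and 3 did not pass. Serpinb6b, whose product inhibits granzyme A in mice, rose 2.39-fold from 3.87 ± 0.594 to 9.34 ± 1.62 CPM (edgeR adjusted p = 0.00110). Serpinb9, which encodes the inhibitor of granzyme B, had 66.4 ± 4.17 against 64.9 ± 1.72 CPM and did not pass (log2 fold change 0.03, SE 0.0719). Serpinb6a and Serpinb9b, close relatives, had log2 fold changes of 0.10 and 0.00 without passing.

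Both lectin-like receptor genes were higher after ablation. Klrd1 encodes CD94, which pairs with NKG2 proteins to read the class I molecule Qa-1 (chromosome 6, 129591782 to 129598775). It had 89 and 89 counts after ablation and 43, 62 and 45 in controls, or 5.61 and 6.71 against 2.89, 3.11 and 3.14 CPM. The controls were close together and both Treg-ablated libraries lay above them. The rise was 2.01-fold (log2 fold change 1.01, SE 0.166, edgeR adjusted p = 0.00247). Klrk1 encodes NKG2D, an activating receptor for stress ligands (chromosome 6, 129610323 to 129623864). It had 123 and 106 counts after ablation and 63, 98 and 55 in controls, or 7.754 and 7.996 against 4.23, 4.91 and 3.83 CPM. The groups did not overlap, and the rise of 1.80-fold was the smallest of the 9 called genes (log2 fold change 0.85, SE 0.152, edgeR adjusted p = 0.00347).

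Ncr1 was the gene that did not pass. It encodes NKp46, a receptor of NK cells and related innate lymphoid cells (chromosome 7, 4337724 to 4345164). It had 18 and 19 counts after ablation and 19, 20 and 13 in controls, or 1.14 and 1.43 against 1.28, 1.002 and 0.906 CPM. The groups overlapped, since control replicate 1 lay between the Treg-ablated libraries. The log2 fold change was 0.27 (SE 0.305, edgeR adjusted p = 0.555). The ratio of summed, scaled counts was 1.202 with an exact 95% interval of 0.767 to 1.87, so a rise as large as that of Gzmb or Gzma lay outside the counting error, whereas a rise like that of Klrk1 did not.

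Other NK receptors went different ways. Of 23 listed NK receptor and adaptor genes 13 were tested, of which 6 were higher, 6 did not pass and 1 was lower (median log2 fold change 0.76 over those tested). With every gene of at least 1 count the numbers were again 6 higher and 1 lower, now of 23. Of all 25940 genes in that fit 2082 were higher and 2336 lower. The count of higher genes was 2 without Treg-ablated replicate 2 and 3 without control replicate 2, and that of lower genes 0 in both cases and 2 without Treg-ablated replicate 1. Klrc1, which encodes NKG2A, the inhibitory partner of CD94, had the smallest p of this list. It had 70 and 60 counts after ablation and 11, 17 and 19 in controls, a rise of 4.63-fold (log2 fold change 2.21, SE 0.248, edgeR adjusted p = 0.000419), larger in size than the 2.01-fold rise of Klrd1. The difference between these rises was not tested. Klrc1 lies beside its paralogs Klrc2 and Klrc3, whose reads the counting could split, so its value is uncertain too. Klra4, a member of the Ly49 family with close paralogs and therefore an uncertain value, rose 1.64-fold (edgeR adjusted p = 0.00212). Cd226, an activating receptor of T and NK cells, had 16 and 31 counts against 9, 6 and 3 and rose 4.37-fold (edgeR adjusted p = 0.0118), which was lost without either second replicate, Treg-ablated (adjusted p = 0.112) or control (adjusted p = 0.0695). Tyrobp, which encodes the adaptor DAP12 used by NK and myeloid cells, was 24.2 ± 1.15 CPM in controls and 17.4 ± 3.38 after ablation, a log2 fold change of −0.47 (edgeR adjusted p = 0.0177). The Tyrobp call was lost without Treg-ablated replicate 2 (adjusted p = 0.116), without control replicate 2 (adjusted p = 0.0611) and with a correction for GC content (adjusted p = 0.0632).

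Of 7 genes listed as ligands of NKG2D and CD94, 3 were tested, of which 2 did not pass and 1 was lower. Ulbp1, which encodes a stress ligand of NKG2D, was 8.59 ± 1.33 CPM in controls and 5.88 ± 0.647 after ablation, a log2 fold change of −0.55 (edgeR adjusted p = 0.0313). It was lost under DESeq2 (adjusted p = 0.0598), without Treg-ablated replicate 1 (0.132) and without control replicates 1 (0.0863) or 2 (0.0876). Raet1e, another NKG2D ligand of mice, did not pass (log2 fold change 0.22), and neither did H2-T23, which encodes the Qa-1 heavy chain (log2 fold change 0.13). With a correction for GC content H2-T23 passed as higher (log2 fold change 0.25, adjusted p = 0.0223). As a class I gene it has close paralogs and an uncertain value.

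Fasl was rare and rose. It encodes Fas ligand (chromosome 1, 161780689 to 161788495) and had 15 and 18 counts after ablation and 4, 5 and 5 in controls. All 3 controls lay below both Treg-ablated libraries. The log2 fold change was 1.97 (SE 0.406, edgeR adjusted p = 0.00696), and the ratio of summed, scaled counts was 3.98 with an exact 95% interval of 2.07 to 8.06. The call ended without Treg-ablated replicate 2 (adjusted p = 0.0612). Of 6 other death ligand, death receptor and effector cytokine genes 3 were higher, 1 did not pass and 1 was lower, and Lta was not tested. Without control replicate 2, 1 was higher. Fas, the receptor of Fas ligand, rose 1.57-fold (edgeR adjusted p = 0.00777) and Tnfsf10, which encodes the death ligand TRAIL, 1.98-fold (edgeR adjusted p = 0.00769). Both calls ended without control replicate 2 (adjusted p = 0.0528 and 0.0556). Tnfrsf10b, the mouse receptor for TRAIL, had a log2 fold change of −0.27 (edgeR adjusted p = 0.0220), which was lost without Treg-ablated replicate 1 (adjusted p = 0.138) and without control replicate 2 (adjusted p = 0.114). Ifng, the cytokine gene of the same effector cells, had 54 and 37 counts against 12, 15 and 12 and a log2 fold change of 1.96 (SE 0.251, edgeR adjusted p = 0.000791).

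Eomes encodes eomesodermin, a T-box transcription factor of NK cells and memory CD8+ T cells (chromosome 9, 118478212 to 118486132). It had 27 and 23 counts after ablation and 10, 8 and 9 in controls, or 1.70 and 1.74 against 0.672, 0.401 and 0.627 CPM. The groups did not overlap. The log2 fold change was 1.63 (SE 0.324, edgeR adjusted p = 0.00584). Of the 10 other transcription factors of effector lymphocytes 4 were higher, 5 did not pass and Zfp683, with 1 count in all, was not tested. Tbx21, which encodes T-bet, had 21 and 22 counts against 12, 13 and 9 and rose 2.13-fold (edgeR adjusted p = 0.0275). The Tbx21 call ended under DESeq2 (adjusted p = 0.135) and without any library other than control replicate 1, with adjusted p of 0.0617 and 0.168 without Treg-ablated replicates 1 and 2 and 0.0949 and 0.0554 without control replicates 2 and 3. Stat4, which relays the interleukin-12 signal, rose 2.47-fold (edgeR adjusted p = 0.0124), but not without Treg-ablated replicate 2 (adjusted p = 0.0928). Id2 and Bhlhe40, which many cell types use, rose 1.44-fold and 1.36-fold (edgeR adjusted p = 0.00272 and 0.00165). The list's count of higher genes was 2 without Treg-ablated replicate 2.

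**Figure D2:**
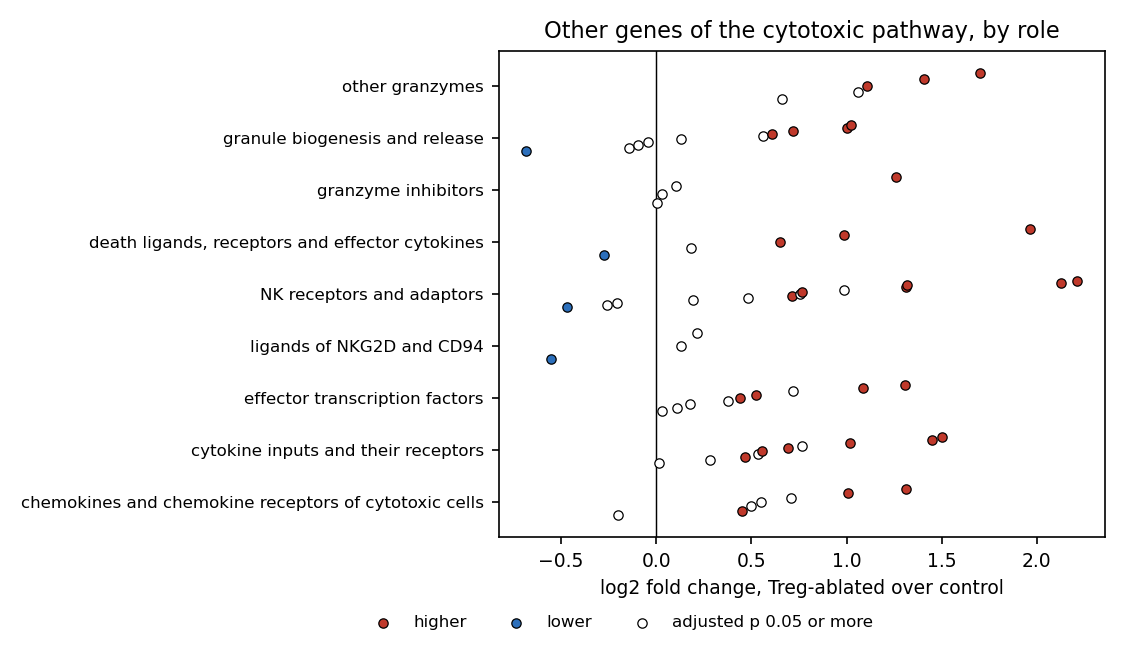
Log2 fold change, Treg-ablated over control, of each tested gene of the 9 other lists of the pathway, 1 point per gene. Red points passed as higher, blue points as lower and white points did not pass. The points farthest to the right are the NK receptor genes Klrc1 at 2.21 and Cd226 at 2.13 and the cytokine gene Ifng at 1.96, and Lyst at −0.68 lies farthest to the left.

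Of 10 genes for the cytokines that sustain killer cells and their receptors, 6 were higher and 4 did not pass, with a median log2 fold change of 0.62. Il2rb, the shared receptor chain for interleukins 2 and 15, rose 2.02-fold from 8.97 ± 0.607 to 18.2 ± 0.0244 CPM (edgeR adjusted p = 0.000306). Il18r1, an interleukin-18 receptor chain, rose 2.73-fold (edgeR adjusted p = 0.00214), and Il2ra, the high-affinity chain that Treg cells and activated T cells carry, 2.83-fold (edgeR adjusted p = 0.00279). Il15ra, which presents interleukin-15, rose 1.38-fold (edgeR adjusted p = 0.00354). Of 7 chemokine and chemokine receptor genes of cytotoxic cells 3 were higher and 4 did not pass. Cxcr6, a homing receptor of resident T and NK cells, rose 2.49-fold (edgeR adjusted p = 0.00578), and Ccl3 rose 2.01-fold (edgeR adjusted p = 0.00665). Ccl4, a close relative of Ccl3, did not pass (log2 fold change 0.55). Ccl5 passed narrowly (1.37-fold, edgeR adjusted p = 0.0489) and failed under 8 of 12 alternatives, with adjusted p between 0.0504 and 0.280 in those. Over the 9 lists together, 30 of the 66 genes tested were higher and 4 lower, while 32 did not pass, beside the 13.5% and 12.3% of all genes. The higher genes numbered 19 without control replicate 2, and the lower genes 0. Lower genes numbered 2 under DESeq2, without the first Treg-ablated replicate and without the first control.

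Markers of T cells moved with the effector genes. All 7 genes of the T cell receptor complex were higher, with a median log2 fold change of 1.62, and their summed level was 27.1 and 31.5 CPM after ablation and 7.79 to 10.2 CPM in controls. Cd3e, a signalling chain of the receptor, had 77 and 68 counts against 25, 33 and 28 (2.84-fold, edgeR adjusted p = 0.000752). Cd8a, the co-receptor of killer T cells, had 140 and 125 counts against 38, 47 and 38 (3.63-fold, edgeR adjusted p = 6.79e-05). Cd4, the co-receptor of helper and Treg cells, had 24 and 19 counts against 8, 22 and 8 and did not pass (edgeR adjusted p = 0.0782), but passed without control replicate 2 (adjusted p = 0.0426) and without the filter on low counts (adjusted p = 0.0444). Of 18 T cell markers tested 16 were higher.

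**Figure D3:**
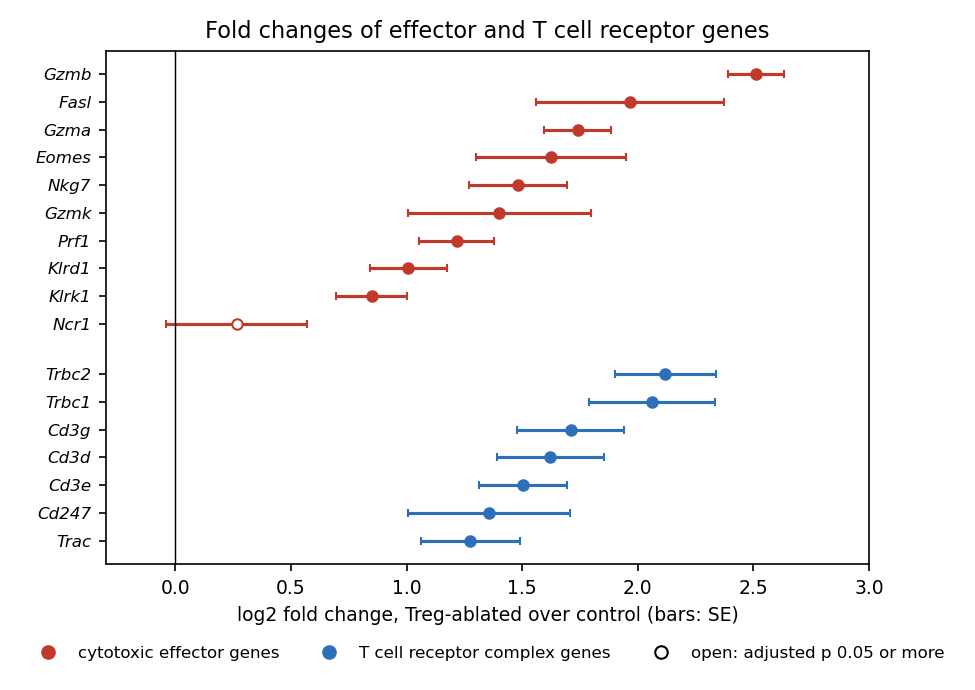
Log2 fold change with its SE for the 10 effector genes (red) and the 7 genes of the T cell receptor complex (blue). The open point, Ncr1, did not pass. Gzmb at 2.51 lies above all 7 T cell receptor genes, which run from 1.28 to 2.12, while Prf1 at 1.22, Klrd1 at 1.01, Klrk1 at 0.85 and Ncr1 at 0.27 lie below them.

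The effector genes were therefore also set against the T cell receptor genes of the same library. The summed count of the 7 receptor complex genes was 430 and 417 after ablation and 116, 196 and 147 in controls. For each count of that sum there were 1.10 and 0.902 Gzmb counts after ablation and 0.543, 0.561 and 0.531 in controls. The controls were nearly alike and both Treg-ablated libraries lay above them, with a difference of 0.86 in mean log2 ratio. For Gzma the ratios were 0.405 and 0.345 against 0.362, 0.362 and 0.327, which overlapped. The ratios of Nkg7, Gzmk, Fasl and Eomes also overlapped between the groups. Those of Prf1, Klrd1, Klrk1 and Ncr1 were lower in both Treg-ablated libraries than in any control, with differences in mean log2 ratio of −0.44, −0.66, −0.80 and −1.39. By this measure both Treg-ablated libraries lay below all controls for 97.3% of all genes tested and above them for 0.233%, shares that follow from the rise of the receptor sum, so nothing is read from the 4 lower genes. For Ncr1 the ratios were 0.0419 and 0.0456 against 0.164, 0.102 and 0.0884. An exact two-sided permutation test, with the smaller tail doubled, gave p = 0.2 for each of Gzmb, Prf1, Klrd1, Klrk1 and Ncr1. This is the smallest p that this form of the test allows with 2 against 3 libraries, so it cannot reach the threshold.

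A fit across all genes with the receptor sum as the offset, added after seeing the data, gave Gzmb a log2 difference of 0.87 (SE 0.245, edgeR adjusted p = 0.000402). In that fit 0.123% of all genes tested, 18 genes, were called higher and 96.7% lower. The offset sets both shares, and nothing is read from either. With nearly all genes called, the adjustment over all genes altered the p-values very little. The adjusted values of this fit are therefore close to unadjusted ones, for Gzmb as for the other effector genes. The counting error of the receptor sum is shared by all genes in it. Klrd1, Klrk1 and Ncr1 passed as lower there (edgeR adjusted p = 0.0224, 0.00279 and 0.000583), as most genes did. Prf1 did not pass (edgeR adjusted p = 0.107), and Gzma, Gzmk, Nkg7, Fasl and Eomes had adjusted p between 0.516 and 0.969. With Cd3e alone as the denominator the difference in mean log2 ratio for Gzmb was 1.02 and that for Gzma 0.24. With Ptprc, which all leukocytes express, they were 2.20 and 1.43, those for Prf1, Klrd1 and Klrk1 turned positive, at 0.90, 0.69 and 0.55, and that for Ncr1 was −0.04.

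**Figure D4:**
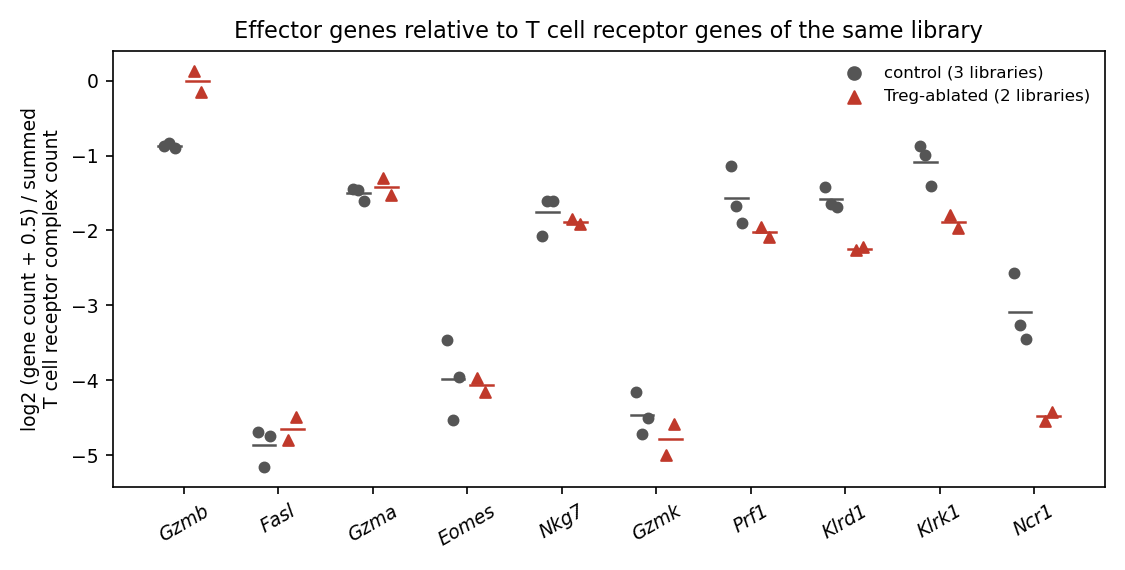
Log2 ratio of each effector gene's count plus 0.5 to the summed T cell receptor complex count of the same library. Circles are controls, triangles Treg-ablated libraries and lines group means. Gzmb is the gene at which both triangles lie above all circles, and for Prf1, Klrd1, Klrk1 and Ncr1 they lie below.

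Markers of other cell types were compared as well, among them mast cells, which can hold granzymes. The part of these cell types in the effector result was not tested. Of 7 mast cell markers tested 6 were higher, and their summed level was 45.0 and 48.4 CPM after ablation and 20.8 to 29.1 CPM in controls. Cpa3, the mast cell carboxypeptidase gene, had 128 and 130 counts against 60, 91 and 45 (2.25-fold, edgeR adjusted p = 0.00164), and none of the 8 listed mast cell markers was at 0 in all libraries. Of 8 B cell markers 6 were higher, with sums of 57.9 and 73.1 against 15.9 to 19.2 CPM. Siglech, a marker of plasmacytoid dendritic cells, had 7 and 2 counts against 9, 3 and 2 and was not tested. Of the 3 markers of that cell type tested 2 were higher, Tcf4 and Irf8, which other cells also use, and Bst2 did not pass. The list summed to 582 and 623 against 494 to 522 CPM, of which Tcf4 made up 342 against 243.5 on average, while Ccr9, Klk1 and Cox6a2 had at most 8 counts in a library and overlapped between groups. Of 12 macrophage markers 10 were lower and none was higher, with sums of 256 and 304 against 492 to 505 CPM, and Adgre1 fell 1.67-fold (edgeR adjusted p = 0.00275). Of 10 fibroblast markers 4 were lower, Col1a1, Col1a2, Postn and Pdgfrb (log2 fold changes −0.63, −0.55, −0.61 and −0.90), and Dcn was higher (0.40). Their sum overlapped between the groups and was mostly Col3a1, which did not pass (9040 against 8772 CPM on average). Ptprc and Itgam did not pass. Ptprc passed as higher without the first Treg-ablated replicate (adjusted p = 0.0296) or the first control (adjusted p = 0.0248) and Itgam as lower without Treg-ablated replicate 1 (adjusted p = 0.0188), and both did without the filter on low counts (adjusted p = 0.0263 and 0.0358).

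**Figure D5:**
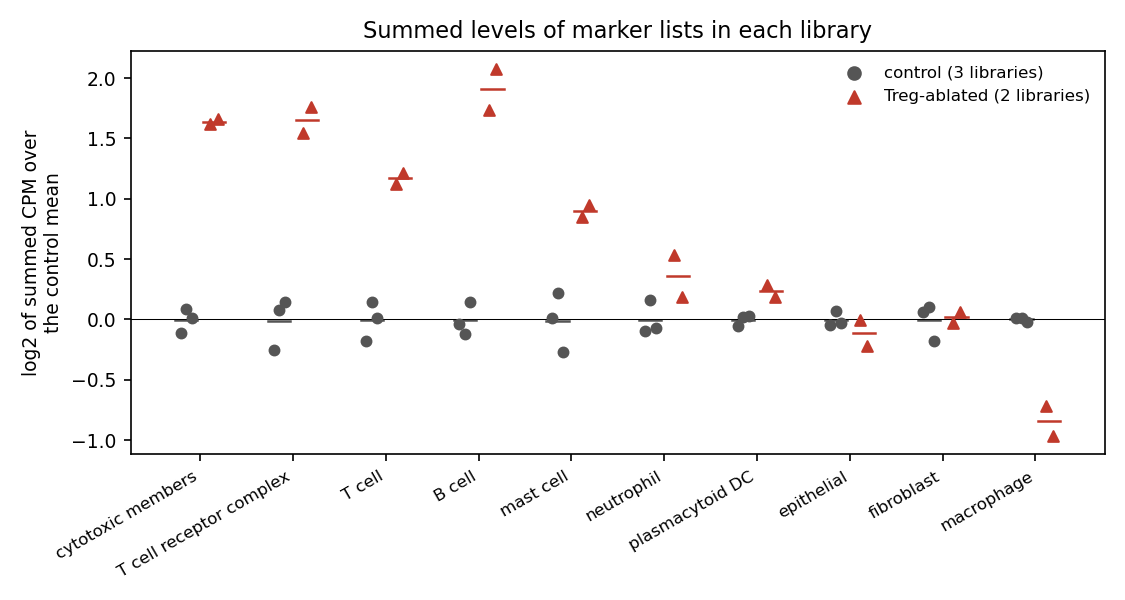
Summed CPM of each marker list in each library, as log2 over the mean of the controls. Circles are controls and triangles Treg-ablated libraries. The effector genes, T cell, B cell and mast cell lists lie above the controls after ablation. The neutrophil and plasmacytoid dendritic cell lists also lie above them, by less. The macrophage list lies below, and the epithelial sum and the fibroblast sum, mostly Col3a1, overlap.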

How the data were processed

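Per the labels' protocols, RNA of sorted cells was made into stranded mRNA libraries and read as 125 base pairs, paired. The deposited values are whole-number counts, not normalized; the authors counted reads, per the file headers, with featureCounts 1.6.2 over exons of a filtered Ensembl 83 annotation of GRCm38, with no strand option. Reads of antisense partners cannot be told apart, although no exon of the 10 genes overlaps another gene of the files. Trimmomatic 0.33, FastQC 0.11.5, DESeq2 1.16.1 and Subread 1.6.2 appear in the submitters' processing notes. The deposited exon lengths, another value of those files, gave levels per kilobase.

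Symbols were joined by Ensembl identifier (46488 of 46983 genes; Cd244 through a RefSeq synonym, H60a unmatched). Groups and replicate numbers came from the sample titles; the deposited file names number the Treg-ablated libraries 2 and 3. Genes were kept by filterByExpr (minimum count 10), scaled by TMM and tested with edgeR 4.0.16 in R 4.3.3. CPM use the TMM-scaled library size. SE was taken from the fold change (log2) and the F statistic. The test was tested on simulated data. A count of 3 equals 0.149 to 0.229 CPM. Replicates differed beyond sampling noise (chi-square per degree of freedom 3.88 to 7.24), so none was treated as a duplicate.

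The members and lists were chosen with earlier results of these data known. Named besides the 10 genes are, per list, the 4 with the smallest p, those that passed against the list's majority, and fixed markers. Lta, Zfp683, Gzmn and the fibroblast, epithelial and further dendritic cell markers were named after their values were seen. Alternatives were RLE factors, library size alone, no low-count filter, DESeq2 1.42.0, limma-voom 3.58.1, a replicate block, a lowess offset on GC content (GENCODE M21) and leaving out each library. Leaving out a Treg-ablated library leaves 1, assumed to vary like the controls. For the ratios they were a pseudocount of 1 in place of 0.5, other denominators and leaving out each library. The values of 1 listed marker gene are not reported here.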

Additional observations from a re-analysis of the deposited data

How the results depend on the processing

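Of the 10 effector genes 9 were higher under RLE factors, library size alone, no low-count filter, limma-voom, the replicate block and the GC offset, and none was lower under any alternative of this comparison. DESeq2 called 7 and gave no adjusted p for Gzmk and Fasl. Leaving out each library in turn gave 7 to 9 higher. Over all genes 1971 were higher and 1787 lower, and 812 to 1687 and 554 to 1538 when a library was left out, with the lowest numbers without control replicate 2. Whether the replicate numbers pair the libraries could not be told. Deviations from the group means correlated at −0.211 for replicates 1 and −0.0276 for replicates 2 as numbered in the titles. As numbered in the file names they correlated at 0.0276 and −0.179. With 2 Treg-ablated libraries the deviations of that group mirror each other, so these values are not independent and cannot decide it. The block used the titles. With the replicate block 1296 genes were higher and 1116 lower, with 9 effector genes higher. It called 5 of the other granzymes higher, against 3 without it, and gave Gzmm an adjusted p of 0.0241 (higher), Tnfrsf10b 0.0819 and Tbx21 0.0649, against 0.0649, 0.0220 and 0.0275 without it. Of the other pathway genes 30 were higher and 4 lower, with 19 to 28 higher and 0 to 4 lower when a library was left out and 2 lower under DESeq2. No called fold change of a gene named by the rule changed direction under the alternatives run. The cause of these changes was not tested. Genes at or under about 20 counts in a library are limited by depth. Among the 10 effector genes these are Gzmk, Fasl and Ncr1 in both groups and Eomes in the controls. Among the other named genes they include Gzmd, Gzme, Gzmm, Klrc1, Cd226, Ifng, Tbx21 and Cxcr6, at least in the controls.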
